A study of Mus musculus with 8 samples.

Results

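The unfolded protein response genes are 10 genes that a cell uses when misfolded proteins build up in the endoplasmic reticulum (ER). They were chosen by name from a list, and all 10 of them were found among the 38406 gene symbols of the count table: Hspa5, Hsp90b1, Calr, Pdia4, Sdf2l1, Dnajb9, Herpud1, Xbp1, Atf4 and Ddit3. RNA was sequenced from regulatory T cells (Tregs, CD4 T cells that carry the transcription factor Foxp3 and restrain other immune cells), 1500 sorted cells to a library. The mice were male C57BL/6, without any other allele named in the labels, and were either 2 months old (young) or more than 6 months old (aged, given only as a lower bound). In every group the tibialis anterior, quadriceps and gastrocnemius had been injected with cardiotoxin, a venom toxin that kills muscle fibres, at 0.9 µg per muscle, and both tissues were taken 4 days later. No group was uninjured, so the spleen libraries too come from injured animals. Tregs of the spleen and of the muscle at both ages gave 4 groups, with 2 libraries each. Whether the libraries of a group came from separate animals or from pools was not stated, and the surface markers of the sort were not given in the labels, so a p-value speaks only of the spread among these libraries, which may be technical.

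A trio of ER membrane proteins senses misfolded protein. IRE1, encoded by Ern1, splices the Xbp1 RNA so that it yields an active transcription factor, ATF6 is cut to release another, and PERK, encoded by Eif2ak3, slows translation while favouring that of ATF4, which in turn drives Ddit3, the gene of the factor CHOP. Together they raise chaperones such as BiP (Hspa5) and the machinery that exports misfolded proteins for degradation, and the ATF4 branch, shared with other stresses, is called the integrated stress response. In lymphocytes the response is best known from plasma cells, which need it for antibody secretion. Counts per gene show RNA levels only: they show neither the spliced share of Xbp1 nor the translation of Atf4.

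All 10 genes passed the filter on low counts, as did 14772 genes in all. Levels are given as CPM, counts scaled to a common library total of 1000000 with edgeR's trimmed mean of M-values, and totals ranged from 1969982 to 4008622 counts. The Treg and T cell markers were read in every library, with 0 of 7 at 0 and summed levels of 2980 to 4540 CPM, and Foxp3 itself lay between 15.4 and 41.5 CPM. The library of young muscle replicate 1 stood apart: its 14 myeloid markers summed to 976 CPM, against 270 in replicate 2, 214 to 223 in aged muscle and 238 to 331 in spleen. Ctss, at 139 to 270 CPM over all libraries, was most of each sum outside replicate 1. In replicate 2, Fcer1g (7.99), Tyrobp (7.99), Lyz2 (12.0), Cd68 (15.0), Itgam (28.0) and Lyz1 (16.5 CPM) exceeded every spleen and aged muscle library. The other markers of the list did not. Leaving out replicate 1 therefore does not leave young muscle free of myeloid markers. In replicate 1 the macrophage marker C1qa was at 111 CPM, against 0 in replicate 2, and 7 fibroblast and endothelial markers summed to 551 CPM, against 155 to 354 in the other libraries. The endothelial marker Pecam1, at 119 to 344 CPM over all libraries, made up most of those other sums. Fibroblast markers were also higher in aged muscle replicate 2 than in aged muscle replicate 1, with Dcn at 30.5 against 0.37 CPM and Col3a1 at 28.3 against 0.74. Markers of muscle fibres and myogenic cells summed to 6.97 to 27.5 CPM, with Myog at 0 in all 8 libraries, and cytotoxic T and NK markers to 7.49 to 19.7 CPM. Fewer cells of a type and less RNA per cell cannot be told apart in these bulk libraries.

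The comparisons were aged with young Tregs in each tissue, the difference between these age effects, and muscle with spleen at each age. Across them, a gene of the set passed the test (edgeR's quasi-likelihood test, adjusted p under 0.05 over all genes tested) in 5 places, and these belonged to only 2 genes, Sdf2l1 and Atf4. Age in muscle moved 0 past the threshold with either edgeR or DESeq2. Before adjustment, 1 gene above 0 and 3 below had a p under 0.05. Of all genes tested, 1.14% were higher and 0.88% lower in that comparison. With age in spleen 1 of 10 rose, Sdf2l1, and 0 fell, against a background of 2.08% higher and 2.17% lower. For those lower in aged spleen, the count was 1 by DESeq2 (Atf4) and 1 at an unadjusted p under 0.05. The age effects differed between tissues for 1 gene, Sdf2l1, where the value in muscle was the lower one, and for 0 genes in the other direction, a count that was also 0 with DESeq2 and without p adjustment. The background there was 1.35% higher and 1.17% lower. Muscle was higher than spleen for 1 gene in young mice, Atf4, with a background of 11.4% higher and 10.9% lower. None was lower in young muscle with edgeR or DESeq2, whereas 1 had p under 0.05 before adjustment. In aged mice Atf4 was higher and Sdf2l1 lower in muscle, with a background of 9.57% and 9.27%. These counts of 0 or 1 in 10 lie near the background, so they say nothing particular about the set, and the results below concern single genes.

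**Figure D1:**
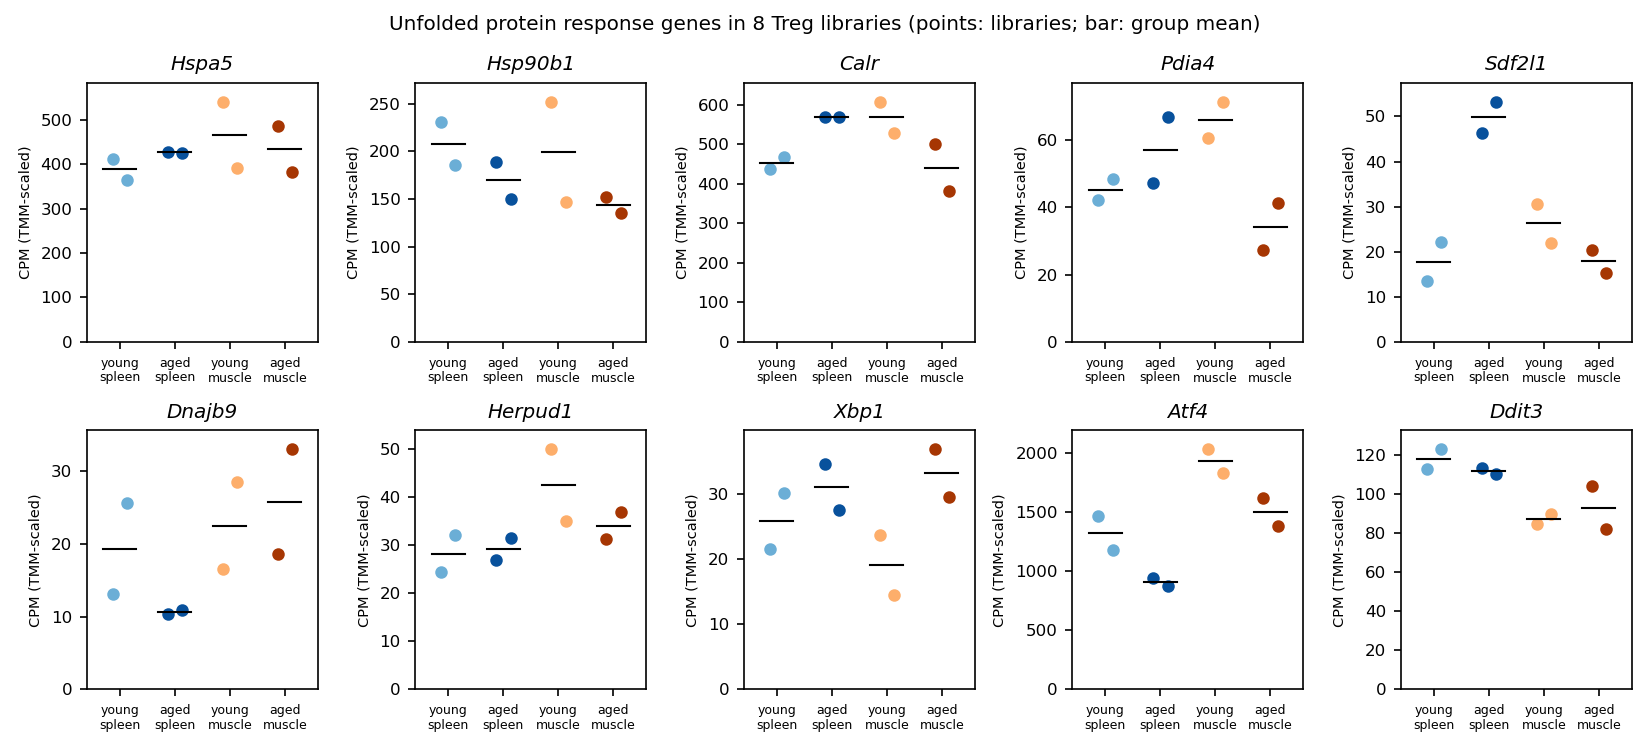
Level of each of the 10 genes in every library (CPM, linear axis from 0, a different range in each panel), with the spleen groups (young, aged) left of the muscle groups (young, aged). Points are libraries and the bar is the mean of 2. Both aged spleen libraries of Sdf2l1, at 46.3 and 53.3 CPM, sit above all others, and both aged spleen libraries of Atf4, at 939 and 875 CPM, sit below all others.

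The levels of the 10 genes spanned a wide range. Per kilobase of annotated exon, Atf4 was the most abundant in every group, at 560.2 (young) and 385 (aged) CPM per kb in spleen and 818 (young) and 635 (aged) CPM per kb in muscle. Calr came next, between 153 and 198 CPM per kb, followed by Hspa5, between 91.9 and 110.4. The lowest levels were those of Xbp1, at 5.88 to 10.2 CPM per kb, and Dnajb9, at 4.15 to 10.1, and these ranges overlap, so their order is not set. Across all 8 libraries, the highest was 1.48 times the lowest for Hspa5, 1.497 times for Ddit3, 1.60 times for Calr and 1.86 times for Hsp90b1. For the other 6 genes the ratio ran from 2.05 for Herpud1 to 3.93 for Sdf2l1.

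The median log2 fold change of the 10 genes was -0.34 for age in muscle, beside 0.03 over all genes tested, with 3 genes above 0 and 7 below. It was 0.09 for age in spleen, beside 0.05, and -0.21 for the difference of the age effects, beside -0.04. Without young muscle replicate 1 the medians for age in muscle and for the difference were -0.105 and 0.05. Without young muscle replicate 2 they were -0.469 and -0.513. For muscle against spleen the median was 0.30 in young mice, beside 0.07, and -0.11 in aged mice, beside 0.03.

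The chaperone genes come first. BiP, the product of Hspa5, is the main Hsp70 chaperone of the ER and holds the sensors inactive until misfolded protein draws it away; GRP94, from Hsp90b1, folds integrins and Toll-like receptors; calreticulin, from Calr, binds glycoproteins and calcium; ERp72, from Pdia4, forms disulfide bonds; and SDF2L1 works with BiP. ATF6 and XBP1 are known to act through short elements upstream of such genes. The sequences of 5 genes are shown because they differ in these elements and because Sdf2l1, alone among them, passed the test in any comparison. Each run is the 250 bases before the RefSeq start of the gene (GRCm38.p6), 5′ to 3′ on the strand of the gene. Capitals mark an ER stress response element (ERSE, which is CCAAT, then 9 bases of any kind, then CCACG) in Hspa5, Hsp90b1 and Calr. In Herpud1 they mark an ERSE-II (ATTGG, 1 base of any kind, CCACG) and a C/EBP-ATF composite site (TGATGNAA). In Sdf2l1 they mark the CCACG part alone, which was not marked in the other genes shown, though Herpud1 also holds it. Elements were read on either strand.
Hspa5 (chr2:34771840-34772089, + strand): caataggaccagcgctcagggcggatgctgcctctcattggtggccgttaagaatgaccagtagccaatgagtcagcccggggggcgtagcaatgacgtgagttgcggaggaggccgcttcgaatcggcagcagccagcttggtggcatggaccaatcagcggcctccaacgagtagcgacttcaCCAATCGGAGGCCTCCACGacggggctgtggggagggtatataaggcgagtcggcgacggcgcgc
Hsp90b1 (chr10:86705445-86705694, - strand): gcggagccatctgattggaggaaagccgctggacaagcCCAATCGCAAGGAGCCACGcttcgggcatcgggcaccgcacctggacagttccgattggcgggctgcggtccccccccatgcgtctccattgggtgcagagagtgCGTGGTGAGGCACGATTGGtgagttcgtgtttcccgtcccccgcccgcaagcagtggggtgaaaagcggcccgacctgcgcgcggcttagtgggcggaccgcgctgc
Calr (chr8:84846932-84847181, - strand): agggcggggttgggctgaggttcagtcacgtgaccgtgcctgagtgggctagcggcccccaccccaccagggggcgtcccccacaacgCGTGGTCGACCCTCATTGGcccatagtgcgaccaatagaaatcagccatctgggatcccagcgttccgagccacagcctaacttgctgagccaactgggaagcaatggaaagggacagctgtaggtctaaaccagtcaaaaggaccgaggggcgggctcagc
Herpud1 (chr8:94386179-94386428, + strand): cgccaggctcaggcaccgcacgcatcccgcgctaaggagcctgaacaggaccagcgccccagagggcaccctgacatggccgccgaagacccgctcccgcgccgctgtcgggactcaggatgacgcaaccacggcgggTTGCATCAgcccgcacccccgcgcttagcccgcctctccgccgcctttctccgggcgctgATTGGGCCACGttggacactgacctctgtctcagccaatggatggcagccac
Sdf2l1 (chr16:17132384-17132633, - strand): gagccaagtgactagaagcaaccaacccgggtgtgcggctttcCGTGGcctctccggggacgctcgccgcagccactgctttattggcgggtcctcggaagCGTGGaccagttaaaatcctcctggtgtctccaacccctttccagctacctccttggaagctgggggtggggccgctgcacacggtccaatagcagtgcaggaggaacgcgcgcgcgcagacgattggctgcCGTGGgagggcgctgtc

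An ERSE was found upstream of 3 of the 10 genes and in 37 of 32851 windows of that length in the RefSeq table (0.113%). Counted from the start, it lay at -65 to -47 in Hspa5 and at -162 to -144 on the opposite strand in Calr. Hsp90b1 held it at -212 to -194 and again, on the opposite strand, at -107 to -89. The ERSE-II of Herpud1, at -52 to -42, was 1 of 10 windows in all (0.0304%), and the composite site, at -112 to -105 on the opposite strand, occurred in 3.45% of windows. The UPR element core TGACGTGG was found in none of the 10 genes and in 0.563% of windows. CCACG by itself, which every ERSE and ERSE-II contains, was upstream of 7 of the 10 genes, against 28.3% of windows, and Sdf2l1 had it 3 times on the opposite strand, beginning at -207, -149 and -17. A match is a run of letters and not a measured binding site, and the starts of Hspa5, Hsp90b1, Calr and Ddit3 in GENCODE lie inside their windows and the whole Dnajb9 window lies inside its GENCODE gene.

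**Figure D2:**
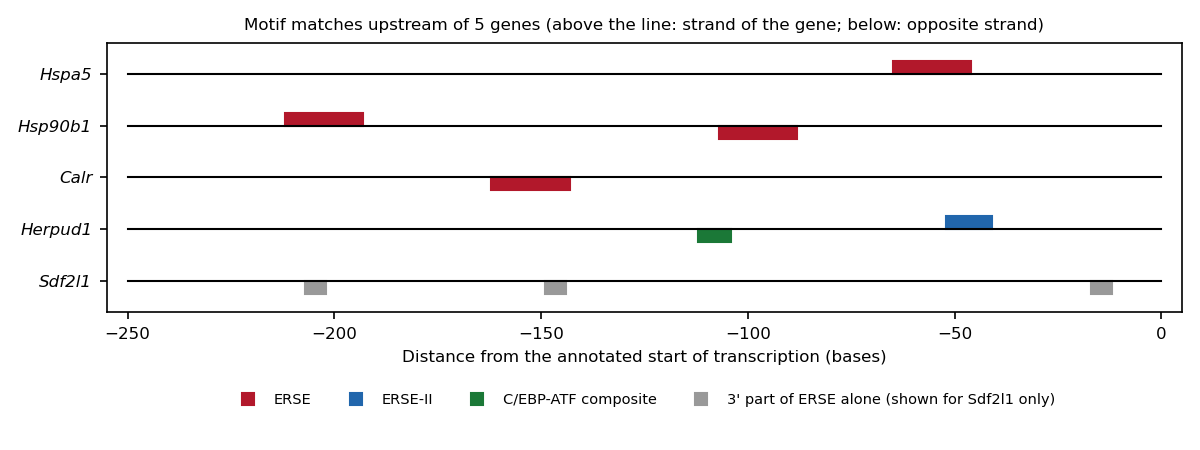
Position of the motif matches in the 250 bases before the annotated start of 5 genes (horizontal axis, bases from the start; boxes above a line are on the strand of the gene and boxes below it on the opposite strand). Hspa5, Hsp90b1 and Calr hold an ERSE, Hsp90b1 in 2 places, Herpud1 an ERSE-II and a composite site, and Sdf2l1 only the shorter part of the ERSE, 3 times. The shorter part alone is drawn for Sdf2l1 only.

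Sdf2l1 (chromosome 16, 17130138 to 17132383, minus strand) rose with age in spleen. It was read at 13.6 and 22.1 CPM (young) and 46.3 and 53.3 CPM (aged) in spleen, and at 30.6 and 22.0 CPM (young) and 20.5 and 15.2 CPM (aged) in muscle, from 29 to 189 counts a library. The aged spleen libraries lay above all 6 others, whereas in muscle the aged libraries lay just below the young ones. Means were 17.8 ± 6.03 CPM in young and 49.8 ± 4.90 in aged spleen (SD, n = 2), a 2.77-fold increase. On the log2 scale that was 1.47 with an SE of 0.35 (edgeR adjusted p = 0.0248), and every ± beside a log2 fold change below is an SE. In muscle the log2 fold change with age was -0.56 ± 0.35 (edgeR adjusted p = 0.479), from 26.3 ± 6.08 to 17.9 ± 3.72 CPM. The age effects in muscle and spleen differed by -2.03 ± 0.49 (edgeR adjusted p = 0.0405). In aged mice the gene was 2.78-fold lower in muscle than in spleen, with a log2 fold change of -1.47 ± 0.35 (edgeR adjusted p = 0.00876), and in young mice the value was 0.56 ± 0.36 (edgeR adjusted p = 0.271).

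These calls rest on few libraries. The rise in spleen ended when any 1 spleen library was left out, with log2 fold changes of 1.18 to 1.89 and edgeR adjusted p of 0.0722 to 0.322. The difference of age effects ended without any 1 library other than young muscle replicate 2, with values of -1.75 to -2.46, and was -1.78 without young muscle replicate 1 (edgeR adjusted p = 0.0934). The tissue difference in aged mice ended without aged spleen replicate 2 (-1.41) or aged muscle replicate 2 (-1.29). The summed level of B and plasma cell markers moved in the same direction as Sdf2l1 in spleen: the 10 markers in the table summed to 507 to 527 CPM in young and 650 to 680 in aged spleen, against 289 to 345 in muscle. Ighm made up most of that sum, and its own log2 fold change with age in spleen was 0.36 ± 0.15 (edgeR adjusted p = 0.213). Less abundant markers had larger values with wide SE: Cd79a 1.511 ± 0.96, Pax5 1.242 ± 0.842, Igkc 1.077 ± 0.643 and Ms4a1 1.002 ± 1.241. For each of them both aged spleen libraries lay above both young ones, at levels of 0.77 to 31.14 CPM. Igj was at 0.269 ± 0.661. Among the tested markers only Cd79b went the other way (-0.18 ± 0.33, edgeR adjusted p = 0.854). No tested marker of the list passed for age in spleen. The defining plasma cell markers Sdc1 and Tnfrsf17 were at 0 to 1.94 CPM in the spleen libraries and the J chain gene Igj at 8.41 to 18.4. The part of these cells in the result was not tested.

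Hspa5 (chromosome 2, 34771970 to 34777547, plus strand), whose product is the usual gauge of ER stress, was read at 412 and 365 CPM (young) and 428 and 426 CPM (aged) in spleen, and at 541 and 393 CPM (young) and 485 and 381 CPM (aged) in muscle. The muscle groups overlapped, and the aged spleen libraries lay barely above the young ones. Age effects on the log2 scale were 0.14 ± 0.18 in spleen (95% confidence interval -0.24 to 0.51) and -0.11 ± 0.18 in muscle (-0.48 to 0.27). For muscle against spleen it was 0.27 ± 0.18 in young mice and 0.02 ± 0.18 in aged mice (edgeR adjusted p = 0.291 and 0.942). The intervals for age leave room for less than a 1.5-fold rise in either tissue.

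Hsp90b1 (chromosome 10, 86690209 to 86705509, minus strand) was read at 231 and 185 CPM (young) and 188 and 150.3 CPM (aged) in spleen, and at 252 and 146 CPM (young) and 152 and 136 CPM (aged) in muscle. Every pair of groups compared overlapped, and young muscle replicate 1 held the highest level. Its age effects (log2) were -0.29 ± 0.23 in spleen and -0.47 ± 0.23 in muscle (edgeR adjusted p = 0.582 and 0.358), and without young muscle replicate 1 the value in muscle was -0.03. Reads of Hsp90b1 are uncertain to the extent that they overlap Gm15344 and, on the opposite strand, the pseudogene 1810014B01Rik.

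Calr (chromosome 8, 84841850 to 84846934, minus strand) was read at 438 and 469 CPM (young) and 571 and 571 CPM (aged) in spleen, and at 608 and 529.5 CPM (young) and 501 and 381 CPM (aged) in muscle. The aged libraries lay above the young ones in spleen and below them in muscle, without overlap in either tissue. With 2 libraries a group such separation is easily reached for any gene here, and its share over all genes was not counted. Neither age effect passed the test: the log2 fold change was 0.33 ± 0.16 in spleen and -0.37 ± 0.16 in muscle (edgeR adjusted p = 0.312 and 0.284). Their difference was -0.70 ± 0.23 (edgeR adjusted p = 0.142; DESeq2 adjusted p = 0.0391).

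Pdia4 (chromosome 6, 47796141 to 47813430, minus strand) was read at 42.1 and 48.4 CPM (young) and 47.3 and 66.8 CPM (aged) in spleen, and at 60.8 and 71.4 CPM (young) and 27.2 and 41.4 CPM (aged) in muscle. Both aged muscle libraries were the lowest of all 8. From young to aged muscle the mean went from 66.1 ± 7.55 to 34.3 ± 10.1 CPM (SD, n = 2), a log2 difference of -0.95 ± 0.28 (SE) that did not pass the test (edgeR adjusted p = 0.103). It did pass when genes with low counts were kept (-0.97, edgeR adjusted p = 0.028). In aged mice the value for muscle against spleen was -0.73 ± 0.27 (edgeR adjusted p = 0.074). The age effects in the tissues differed by -1.28 ± 0.39 (edgeR adjusted p = 0.115).

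Sdf2l1, Calr, Pdia4, Hspa5 and Herpud1 were all above 0 with age in spleen and below 0 with age in muscle. They were grouped by sign after their values were seen, and the share of all genes with these signs was not counted. In spleen the values of Hspa5 (0.14 ± 0.18) and Herpud1 (0.04 ± 0.30) were smaller than their SE. Of these genes, only Sdf2l1 passed an edgeR test of age in the fit of all 8 libraries. The spleen level of aged mice enters both the age effect in spleen and the tissue difference in aged mice, so these values are not separate evidence.

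Dnajb9 and Herpud1 serve the disposal of misfolded proteins. ERdj4, from Dnajb9, is a BiP partner that also restrains IRE1, and HERP, from Herpud1, is a membrane protein of the ER-associated degradation complex. Dnajb9 (chromosome 12, 44205559 to 44210326, minus strand) was read at 13.1 and 25.6 CPM (young) and 10.3 and 10.9 CPM (aged) in spleen, and at 16.5 and 28.5 CPM (young) and 18.6 and 33.0 CPM (aged) in muscle. Both aged spleen libraries were the lowest, while the 2 libraries of each other group differed by more than 1.5-fold. The log2 fold change with age in spleen was -0.88 ± 0.46 (edgeR adjusted p = 0.364), and muscle against spleen in aged mice gave 1.28 ± 0.46 (edgeR adjusted p = 0.0633). That tissue difference passed when genes with low counts were kept (1.22, edgeR adjusted p = 0.0497) and was 0.81 without aged muscle replicate 2 (edgeR adjusted p = 0.418).

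Herpud1 (chromosome 8, 94386438 to 94395377, plus strand) was read at 24.3 and 32.2 CPM (young) and 27.0 and 31.6 CPM (aged) in spleen, and at 49.9 and 35.0 CPM (young) and 31.3 and 36.8 CPM (aged) in muscle. Young muscle replicate 1 was again the highest, and both young muscle libraries lay above both young spleen libraries. The log2 fold change of muscle against spleen was 0.59 ± 0.31 in young mice (edgeR adjusted p = 0.177) and 0.22 ± 0.30 in aged mice. With age it was 0.04 ± 0.30 in spleen and -0.32 ± 0.30 in muscle. An antisense gene, Gm15890, overlaps Herpud1, and reads of the pair cannot be told apart without the strand setting of the count.

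**Figure D3:**
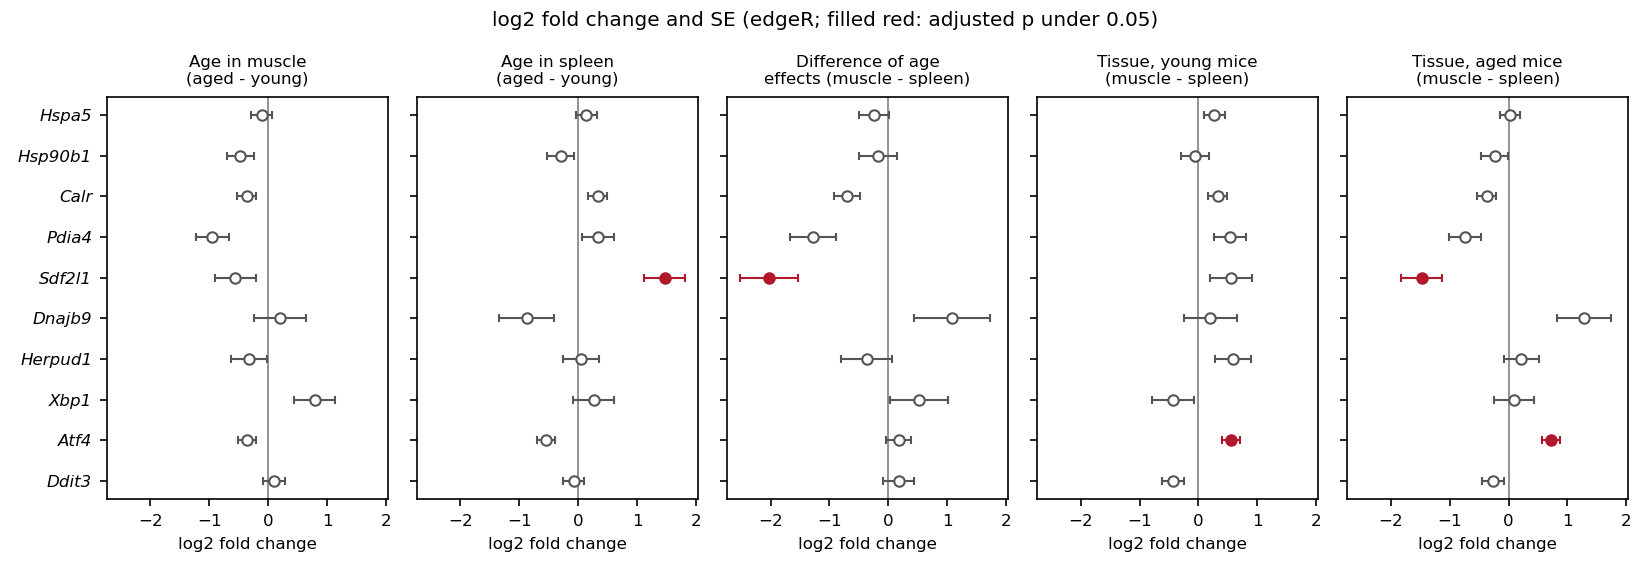
log2 fold change of each gene (horizontal axis, the same in all panels) in the 5 comparisons, with bars for 1 SE from edgeR's fit of all 8 libraries. Filled red points passed the test: Sdf2l1 for age in spleen at 1.47, for the difference of age effects at -2.03 and for tissue in aged mice at -1.47, and Atf4 for tissue at 0.55 in young and 0.72 in aged mice.

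Among the transcription factors, Atf4 was higher in Tregs from muscle. Atf4 (chromosome 15, 80255184 to 80257541, plus strand) drives amino acid import, redox and apoptosis genes. It was read at 1466 and 1176 CPM (young) and 939 and 875 CPM (aged) in spleen, and at 2028 and 1827 CPM (young) and 1616 and 1380 CPM (aged) in muscle. Muscle libraries lay above spleen libraries of the same age without overlap, and within each tissue aged libraries lay below young ones. Muscle was 1.46-fold above spleen in young mice, with means of 1928 ± 142 and 1321 ± 205 CPM (SD, n = 2) and a log2 fold change of 0.55 ± 0.15 (edgeR adjusted p = 0.0189). It was 1.65-fold above spleen in aged mice, with means of 1498 ± 167 and 907 ± 45.0 CPM and a log2 fold change of 0.72 ± 0.15 (edgeR adjusted p = 0.00466). With age the log2 fold change was -0.54 ± 0.15 in spleen (edgeR adjusted p = 0.0611; DESeq2 adjusted p = 0.000902) and -0.36 ± 0.15 in muscle (edgeR adjusted p = 0.26). The age effects differed by 0.18 ± 0.22 (95% confidence interval -0.28 to 0.64).

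The tissue call of Atf4 in young mice ended without any 1 spleen library or without young muscle replicate 1 (0.39 to 0.70 over the libraries left out), and it was 0.45 without young muscle replicate 1, where the myeloid markers were high (edgeR adjusted p = 0.116). In aged mice it was 0.57 to 0.83 over the libraries left out and ended without aged spleen replicate 1 (0.75) or replicate 2 (0.63). Of the myeloid markers, Csf1r was higher in aged muscle than in aged spleen (1.43 on the log2 scale, edgeR adjusted p = 0.0334) and Ctss, the largest part of their sum, lower (-0.78, edgeR adjusted p = 0.0107). The part of such cells in the Atf4 values was not tested.

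Xbp1 (chromosome 11, 5520659 to 5525893, plus strand), the substrate of IRE1, was among the least abundant of the set, at 21.5 and 30.2 CPM (young) and 34.6 and 27.5 CPM (aged) in spleen, and at 23.7 and 14.5 CPM (young) and 36.9 and 29.6 CPM (aged) in muscle. The aged muscle libraries lay above the young ones, and the spleen groups overlapped. Age gave log2 fold changes of 0.79 ± 0.35 in muscle (edgeR adjusted p = 0.303) and 0.26 ± 0.34 in spleen (edgeR adjusted p = 0.778).

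Ddit3 (chromosome 10, 127290774 to 127296288, plus strand), the gene of the pro-apoptotic factor CHOP, was read at 113 and 123 CPM (young) and 113 and 109.9 CPM (aged) in spleen, and at 84.5 and 89.9 CPM (young) and 104 and 82.0 CPM (aged) in muscle. Its muscle libraries lay below the spleen libraries at both ages, the reverse of Atf4. The log2 fold change of muscle against spleen was -0.43 ± 0.19 in young mice and -0.26 ± 0.19 in aged mice, neither past the test (edgeR adjusted p = 0.112 and 0.337). With age it was -0.08 ± 0.19 in spleen and 0.09 ± 0.19 in muscle. These reads are uncertain, since a further Ddit3 entry, Gm4189 and, on the opposite strand, Mars overlap the gene in GENCODE M21.

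The profiles of the 10 genes over the 8 libraries were compared by the root mean square difference of log2 CPM after centring each gene on its mean. The closest pair was Hspa5 and Calr, at 0.17, and the farthest Dnajb9 and Sdf2l1, at 1.10. Atf4 and its target Ddit3 differed by 0.56. Among 7798 other genes whose log2 CPM averaged 4 or more, Arpc5 (0.07) and Cd47 (0.07) were nearest to Atf4. Myo1c (0.07) was nearest to Hspa5, Ypel3 (0.06) to Calr, Mbnl1 (0.06) to Ddit3, Cox7c (0.08) to Hsp90b1 and Ube2j1 (0.10) to Herpud1. Ube2j1 is itself an enzyme of ER-associated degradation. Dyrk1b and Sf3b3 were nearest to Sdf2l1, at 0.21, and Prr11 to Dnajb9, at 0.22. These 2 members varied most (SD of 0.69 and 0.61 in log2 CPM), and the measure is not scaled to that spread. With that many genes over 8 libraries, near profiles can occur between unrelated genes, and how often they do was not counted.

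The other genes of the pathway were read from 5 lists with 99 symbols, of which 97 were in the table and 94 passed the filter on low counts. With age in muscle edgeR called 0 of 94 higher and 3 lower, DESeq2 called 0 and 5, and 2 and 14 had p under 0.05 before adjustment. With age in spleen edgeR called 0 and 0, DESeq2 called 0 and 1, and 6 and 10 had p under 0.05 before adjustment. In muscle against spleen, 14 (14.9%) were higher and 6 (6.38%) lower in young mice, and 8 (8.51%) and 5 (5.32%) in aged mice. The shares over all genes were 11.4% and 10.9% in young and 9.57% and 9.27% in aged mice. Across the alternatives run, the numbers higher in muscle ranged from 6 to 19 in young and from 3 to 11 in aged mice, and those lower from 1 to 8 and from 0 to 8. The lowest counts came from leaving out 1 spleen library of the age compared.

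The genes of the sensors IRE1 and ATF6 were higher in muscle, and that of PERK was not called. Ern1 was read at 7.48 and 11.6 CPM (young) and 22.8 and 13.6 CPM (aged) in spleen, and at 37.0 and 44.0 CPM (young) and 52.9 and 45.3 CPM (aged) in muscle. All muscle libraries exceeded all spleen libraries, with log2 fold changes of 2.06 ± 0.37 in young and 1.42 ± 0.34 in aged mice (edgeR adjusted p = 0.0011 and 0.00999). Atf6 was read at 41.1 and 28.7 CPM (young) and 40.5 and 49.5 CPM (aged) in spleen, and at 106 and 104 CPM (young) and 70.4 and 82.5 CPM (aged) in muscle. It too was above spleen in every muscle library, by 1.60 ± 0.24 in young and 0.77 ± 0.23 in aged mice on the log2 scale (edgeR adjusted p = 0.000258 and 0.0317). Atf6b, a close relative of Atf6, went the other way, at -0.55 ± 0.20 in young and -0.65 ± 0.19 in aged mice (edgeR adjusted p = 0.0566 and 0.0309). Eif2ak3 was read at 21.5 to 51.1 CPM in spleen and 30.5 to 39.3 in muscle, with values of -0.22 ± 0.39 and 0.27 ± 0.38 for muscle against spleen (edgeR adjusted p = 0.718 and 0.643).

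In young mice the values of Ern1 and Atf6 without young muscle replicate 1 were 2.17 and 1.57, and both passed the test under every alternative run. In aged mice Ern1 lost its call without aged spleen replicate 2 or aged muscle replicate 1, and Atf6 and Atf6b without either aged spleen library or without aged muscle replicate 2. Of the 7 sensor and processing genes 0 passed for age in either tissue with edgeR or DESeq2, and 0 in muscle and 2 in spleen had p under 0.05 before adjustment.

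The list of the PERK branch and integrated stress response had 26 genes tested. In young mice 8 (30.8%) were higher and 3 (11.5%) lower in muscle, beside 11.4% and 10.9% of all genes, and in aged mice 4 (15.4%) were higher and 1 (3.85%) lower, beside 9.57% and 9.27%. Without either aged spleen library the aged counts were 2 and 0. Atf3, a stress-induced transcription factor downstream of ATF4, was read at 1.40 and 3.49 CPM (young) and 3.68 and 2.38 CPM (aged) in spleen, and at 84.5 and 35.5 CPM (young) and 71.1 and 73.2 CPM (aged) in muscle. It was 23.5-fold higher in young muscle and 23.0-fold higher in aged muscle, with log2 fold changes of 4.56 ± 0.51 and 4.52 ± 0.47 (edgeR adjusted p = 2.31e-05 and 1.89e-05). Sesn2, a stress-induced inhibitor of mTORC1, was read at 40.7 and 37.2 CPM (young) and 34.6 and 20.4 CPM (aged) in spleen, and at 174 and 141 CPM (young) and 94.97 and 62.2 CPM (aged) in muscle. Muscle was 4.05-fold above spleen in young and 2.83-fold in aged mice (edgeR adjusted p = 0.000114 and 0.00189). Atf3 and Sesn2 passed at both ages under every alternative run.

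Ppp1r15a, whose product GADD34 lets translation resume, was read at 580.4 and 598 CPM (young) and 449 and 469.6 CPM (aged) in spleen, and at 774 and 862 CPM (young) and 846 and 631 CPM (aged) in muscle. Its log2 fold change for muscle against spleen was 0.47 ± 0.16 in young and 0.69 ± 0.16 in aged mice (edgeR adjusted p = 0.0442 and 0.00819). The call in aged mice ended without either aged spleen library. The genes lower in young muscle, named after their values were seen, were Eif2s1 (-0.80), Shmt2 (-0.78) and Wars (-0.91), and in aged muscle Shmt2 (-0.84). They encode the translation factor that PERK phosphorylates, a mitochondrial enzyme of serine use and the tryptophan tRNA synthetase. The 3 lower in young muscle became 1 with DESeq2, library-size scaling or only the 2 groups fitted, and 0 without either young spleen library.

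**Figure D4:**
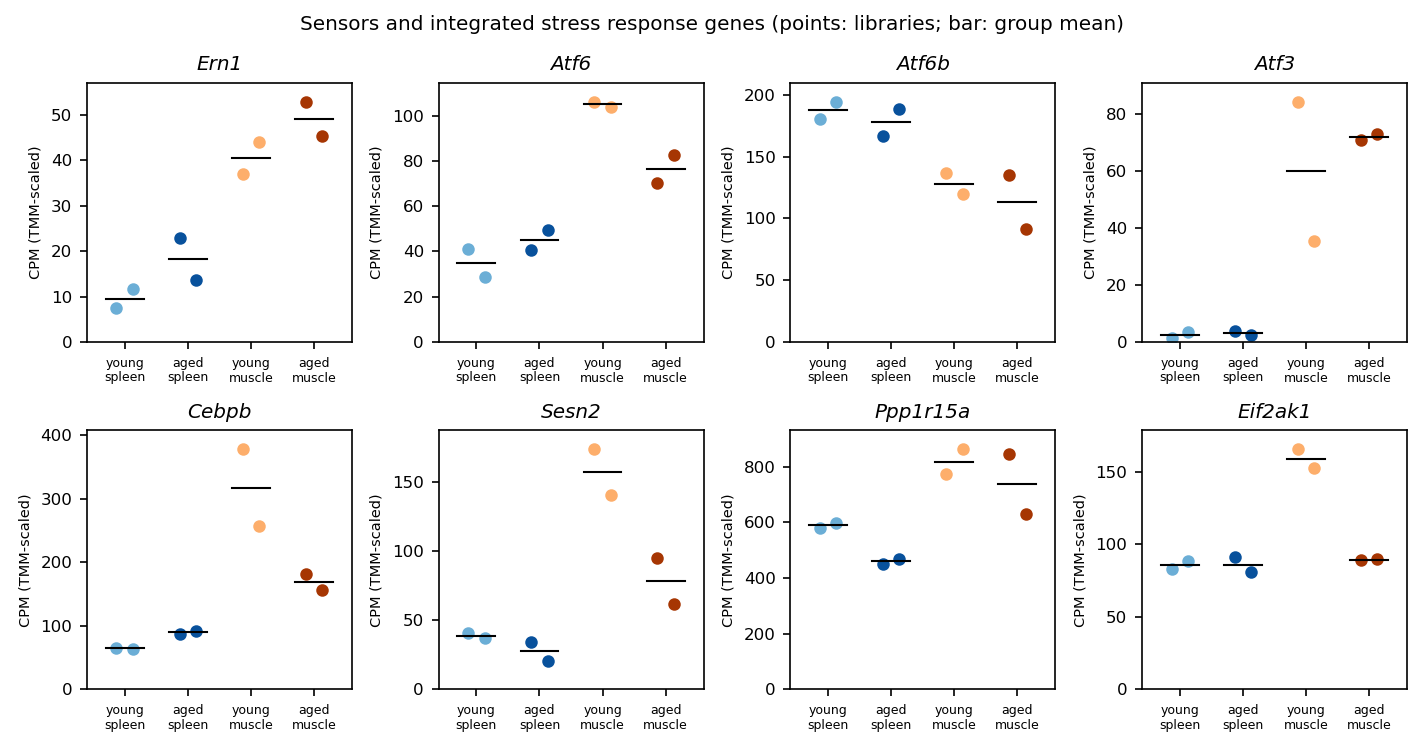
Level of sensor genes (Ern1, Atf6, Atf6b) and of integrated stress response genes (Atf3, Cebpb, Sesn2, Ppp1r15a, Eif2ak1) in every library (CPM, linear axis from 0, a different range in each panel); points are libraries and the bar is the mean of 2. Atf3 lies at 1.40 to 3.68 CPM in all spleen libraries and at 35.5 to 84.5 in muscle, and Cebpb at 378 and 257 CPM in young muscle against 182 and 157 in aged muscle.

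Cebpb, the gene of a transcription factor that pairs with ATF4 and CHOP and is abundant in myeloid cells, was the one gene of the 94 that passed the test of the difference between the age effects. It was read at 65.4 and 63.5 CPM (young) and 88.0 and 91.6 CPM (aged) in spleen, and at 378 and 257 CPM (young) and 182 and 157 CPM (aged) in muscle. Aged muscle lay below young muscle and aged spleen above young spleen. The log2 fold change with age was -0.91 ± 0.19 in muscle (edgeR adjusted p = 0.0215) and 0.48 ± 0.20 in spleen (edgeR adjusted p = 0.24), and the difference was -1.38 ± 0.28 (edgeR adjusted p = 0.0125). Muscle was above spleen by 2.30 ± 0.20 in young mice (edgeR adjusted p = 1.44e-06) and 0.92 ± 0.19 in aged mice (edgeR adjusted p = 0.00473). The call for tissue in aged mice ended without either aged spleen library. The difference of age effects ended without any 1 spleen library (-1.39 to -1.43).

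Ddit4, an mTORC1 inhibitor, fell with age in muscle by 0.82 ± 0.16 on the log2 scale, from 408 and 380 to 244 and 202 CPM (edgeR adjusted p = 0.0149). Eif2ak1, the gene of the haem-regulated kinase of the same pathway, fell by 0.83 ± 0.18, from 165 and 152 to 89.0 and 89.7 CPM (edgeR adjusted p = 0.0255). The falls of Cebpb, Ddit4 and Eif2ak1 all ended without young muscle replicate 1, at -0.61, -0.78 and -0.78 (edgeR adjusted p = 0.277, 0.0917 and 0.147), and also without aged muscle replicate 2. They ended too when only the muscle libraries were fitted. Leaving out any 1 spleen library also ended part of these calls, though the spleen libraries enter this comparison only through the shared fit. The count of the list without young muscle replicate 1 was 0 higher and 0 lower for age in muscle. For muscle against spleen in young mice it was then 6 higher and 3 lower, with Atf3 at 3.77, Cebpb at 1.98 and Sesn2 at 1.84, all past the test. Over the libraries left out, the number higher in young muscle ranged from 3 to 8, the lowest without young spleen replicate 1. Myeloid markers moved with these genes within young muscle: the library with 976 CPM of them also held more Atf3 and Cebpb than the one with 270. Fcer1g (-5.75) and Tyrobp (-4.86) passed for age in muscle (edgeR adjusted p = 0.0158 and 0.0215). They also passed for the difference of age effects, at -6.53 and -5.93 (edgeR adjusted p = 0.0303 and 0.0362). Both were at 0 to 1.86 CPM in aged muscle, and no other tested myeloid marker passed either test. The part of myeloid cells in the age and tissue differences of these genes was not tested.

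The remaining lists held few calls. Of 20 other chaperone and folding genes, young muscle had 1 higher and 1 lower (5% each) and aged muscle 2 and 2 (10% each), near or below the shares over all genes. The 1 higher in young muscle became 0 without either young spleen library or young muscle replicate 1, and the aged counts became 0 and 0 without aged spleen replicate 1. Dnajc3, the gene of a BiP partner that inhibits PERK, was lower in young muscle by 1.21 ± 0.24, with log2 fold changes of -0.86 to -1.72 over the libraries left out (edgeR adjusted p = 0.00267). Ero1l, an ER oxidase, was higher by 1.12 ± 0.36 and 1.44 ± 0.36 in young and aged muscle (edgeR adjusted p = 0.0379 and 0.0119). In young mice its call ended without young spleen replicate 1 (0.81) or 2 (1.51) or young muscle replicate 1 (1.02), and in aged mice without aged spleen replicate 1 (1.05) or aged muscle replicate 1 (1.07). Cnpy2 and Cnpy3 were lower in aged muscle at -1.01 and -1.14, and Ppib, a folding isomerase, was higher at 0.53, and all 3 calls ended without either aged spleen library. With age in spleen the 20 genes ranged from -0.80 to 0.23 on the log2 scale, below the 1.47 of Sdf2l1.

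Of 16 tested genes of ER-associated degradation, young muscle had 1 higher and 2 lower, and aged muscle 0 and 1. In young muscle Edem3, which helps to mark glycoproteins for disposal, was higher at 1.16 ± 0.36 and Faf2, a partner of the VCP segregase, lower at -1.06 ± 0.31 (edgeR adjusted p = 0.0335 and 0.0257). Both ended without young spleen replicate 2 (0.79 and -0.98) or young muscle replicate 2 (1.07 and -0.91), Edem3 also without either aged spleen library and Faf2 without young spleen replicate 1 or with DESeq2. Sel1l, the scaffold of the HRD1 ubiquitin ligase, was lower at both ages, at -0.63 ± 0.20 and -0.93 ± 0.20 (edgeR adjusted p = 0.036 and 0.00471). In young mice it did not pass with DESeq2, which called 0 genes of the list lower there, or with library-size scaling. Its call in young mice also ended without either young spleen library. In aged mice it ended without aged spleen replicate 2 (-0.76). Of 25 translocon and secretory transport genes, 2 were higher in young muscle, Sec24d at 1.55 ± 0.38 and Ssr3 at 0.74 ± 0.19 (edgeR adjusted p = 0.00923 and 0.0112). Both calls ended without young spleen replicate 1, and that of Ssr3 also without young spleen replicate 2 or young muscle replicate 1, while 0 passed in aged muscle with edgeR or DESeq2, with 1 above and 1 below at p under 0.05 before adjustment.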

How the data were processed

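RNA-seq of 8 Treg libraries was analysed from the deposited table of raw counts, whole numbers per gene that the authors had not normalized, with every column used. Per the labels' protocols, RNA was amplified by in vitro transcription for 9 hours and by 15 PCR cycles, with no mention of molecular identifiers. A count is therefore a read, and amplification can change the proportions of transcripts. Named in the submitters' processing notes are HTSeq, SAMtools 0.1.19, Picard, TopHat and TopHat2, with the build mm10. The annotation and strand setting of the count were not given in the sources used here.

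Groups were taken from the sample titles. In R 4.3.3, edgeR 4.0.16 kept 14772 genes (filterByExpr), scaled libraries by TMM and fitted 1 robust quasi-likelihood model of 4 groups (4 residual degrees of freedom, biological coefficient of variation 0.288). Tests were two-sided with Benjamini-Hochberg adjustment over all genes at 0.05. SE is the log2 fold change over the square root of F. Profiles used log2 CPM with a prior count of 2. The fit was tested on simulated data. The 2 libraries of a group differed by more than sampling noise (chi-square per gene 3.56 to 8.39).

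The members and lists were chosen with earlier results of these data known. All 10 members were named, with the sensors Ern1, Eif2ak3, Atf6 and Atf6b, up to 4 genes of smallest p per list and comparison among those past the threshold (the text gives a part), and the nearest of 3 profiles per member, leaving out members and predicted or clone-named genes. Alternatives were library-size scaling, DESeq2 1.42.0, no filter on low counts, only the 2 groups compared, a replicate block, and each library left out. Positions are from GENCODE M21 (GRCm38), counted from 1, and sequences from RefSeq (GRCm38.p6), where all 10 members matched. No protein sequence was used here.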

Additional observations from a re-analysis of the deposited data

Results flagged for a closer look

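The age effect of Sdf2l1 in muscle minus that in spleen was -2.029 on the log2 scale and passed the test of the difference itself (edgeR adjusted p = 0.0405), with the aged libraries lower in muscle and higher in spleen in every library of each group.

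For Cebpb the same difference was -1.384 (edgeR adjusted p = 0.0125), again with both aged libraries below both young ones in muscle and above them in spleen. The myeloid markers Fcer1g and Tyrobp were lower in the same test, at -6.53 and -5.93 (edgeR adjusted p = 0.0303 and 0.0362). No explanation was tested for Sdf2l1 or Cebpb.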

How the results depend on the processing

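With 2 libraries a group, most counts of the 10 genes moved by 1 with the processing. Genes lower with age in muscle numbered 0, and 1 without the filter on low counts or with the replicate block (Pdia4). Genes higher with age in spleen numbered 1, and 2 with library-size scaling or only the 2 groups compared (Calr added). Genes lower with age in spleen numbered 0, and 1 with DESeq2, only the 2 groups or the replicate block (Atf4). Genes with a lower age effect in muscle numbered 1, and 2 with library-size scaling or DESeq2 (Calr) or without the filter (Pdia4). Genes higher in young muscle than spleen numbered 1, and 2 with library-size scaling or only the 2 groups (Calr). Genes higher in aged muscle numbered 1, and 2 without the filter, with only the 2 groups or with the replicate block (Dnajb9). Genes lower in aged muscle numbered 1, and 2 without the filter or with the replicate block (Pdia4). Over the libraries left out, the counts ranged from 0 to 1, and from 0 to 2 for both directions in aged mice. The cause was not tested.

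Values near 0 changed sign, all of them uncalled. With library-size scaling these were Hspa5 for age in muscle (0.01), Ddit3 for age in spleen (0.09) and Hsp90b1 for tissue in young mice (0.05, and 0.00 with only the 2 groups); Hspa5 for tissue in aged mice was -0.03 without the filter. Over the libraries left out, age in muscle ranged from -0.34 to 0.14 for Hspa5, -0.12 to 0.25 for Ddit3 and -0.26 to 0.61 for Dnajb9. Age in spleen ranged from -0.13 to 0.00 for Ddit3 and -0.13 to 0.28 for Herpud1. The difference of age effects ranged from -0.01 to 0.30 for Atf4, -0.03 to 0.33 for Ddit3 and -0.54 to 0.25 for Hsp90b1. Tissue in young mice ranged from -0.24 to 0.76 for Dnajb9 and -0.52 to 0.28 for Hsp90b1, and in aged mice from -0.19 to 0.18 for Hspa5 and -0.10 to 0.25 for Xbp1. Library-size scaling moved the median of all genes from 0.03 to 0.15 for age in muscle, from 0.05 to 0.21 for age in spleen and from 0.07 to 0.18 for tissue in young mice. It also moved the share of calls that were higher from 56.4% to 66.4% and from 49% to 67.4% for age in muscle and spleen.

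The labels do not say that replicate numbers pair libraries across groups, and the correlations of same-numbered deviations ran from -0.065 to 0.256 over 6 pairs of groups. The main fit held no replicate block. With the replicate block, Pdia4 was at -0.97 for age in muscle and -0.74 for tissue in aged mice, Atf4 at -0.53 for age in spleen and Dnajb9 at 1.20 for tissue in aged mice, all past the threshold, and it ended no call.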
